A study of Mus musculus with 91 samples.

Results

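The entry of cells into mesoderm was followed through 6 transcription factor genes, T, Tbx6, Msgn1, Mixl1, Eomes and Mesp1, chosen by name from the 53379 genes of the count table as the factors of the primitive streak and of the paraxial mesoderm that forms beside it. Their reads were described in 91 single cells, 48 mesoderm-like and 43 epiblast-like. The cells came from the caudal lateral epiblast of wild type MF1 mouse embryos, an outbred stock, at the early headfold stage (about embryonic day 8.0), the tissue that flanks the node and the front of the streak. Most of the paraxial mesoderm below it was taken off before pooling, and after dissociation FACS placed single cells in wells with ERCC spike-in RNA, and full-length cDNA was made by Smart-seq2, which carries no molecular identifiers. All cells thus share wild type status, stage and treatment, but embryos of an outbred stock need not be genetically identical. The 48 mesoderm-like cells are those that the dissection left. No embryo is named for any cell, so the 91 cells are 1 pooled sample: SDs describe the spread between cells, and no test was made.

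A cell was called epiblast-like when its level of Nkx1-2, a homeobox gene of the caudal lateral epiblast, was above that of Aldh1a2, the gene of a retinoic acid producing enzyme found in nascent paraxial mesoderm, and mesoderm-like otherwise. Levels are given in CPM, the counts of a gene per 1000000 counts of the cell. The classes were far apart for most cells. Only cell B10 on the epiblast-like side (688 CPM of Nkx1-2 and 570 CPM of Aldh1a2) and 6 cells on the mesoderm-like side had less than a 10-fold gap between the 2 genes, the closest of the 6 being G3 with 164 CPM of Nkx1-2 and 301 CPM of Aldh1a2. Nkx1-2 shares 541 exon bases with Fgfr2 or Gm16764, and the sources used here do not say how reads on shared bases were counted. Marker lists, which include the 2 genes of the rule, followed it: all 6 mesoderm markers had mean levels at least 2-fold above, and 5 of 6 epiblast markers at least 2-fold below, those of epiblast-like cells in the mesoderm-like class. Of all genes with reads in at least 3 cells, 9.55% lay above and 8.18% below by this measure. Total counts ran between 709866 and 4439571 in mesoderm-like and between 1260653 and 3927737 in epiblast-like cells. The median number of genes with reads was 7835.5 in mesoderm-like and 8172 in epiblast-like cells, and the median mitochondrial share was 4.68% in mesoderm-like and 3.79% in epiblast-like cells. Noto, Shh and Chrd of the node and notochord, Sox17 of the endoderm and Tal1 of blood had no read in any cell. The summed level of 5 node or notochord markers reached at most 122 CPM in mesoderm-like and 7.34 CPM in epiblast-like cells. Other markers of such lists were read. The sum of 5 endoderm markers reached 1711 CPM in mesoderm-like cells, through Cer1 in 1 cell, and 0.376 CPM in epiblast-like cells. Of blood or endothelium markers, Etv2 was read in 6 mesoderm-like and 12 epiblast-like cells. Of lateral or cardiac mesoderm markers, Foxf1 was read in 10 mesoderm-like cells and Isl1 in 5.

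In the embryo, Wnt and FGF signals keep T on in the streak and in the epiblast that borders it. Cells that leave through the streak switch on Tbx6 and Msgn1, which drive the paraxial mesoderm programme, and Tbx6 is known to hold back the neural gene Sox2. Eomes and Mesp1 belong to earlier and more anterior mesoderm, endoderm and heart precursors, while Mixl1 marks streak cells and the mesoderm and endoderm that leave it. Wnt signals act on their targets through TCF and LEF proteins, and T, Tbx6 and Eomes are T-box proteins.

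The sequence before the start site of the 3 members with the most reads in mesoderm-like cells that have an entry in the promoter table, T, Tbx6 and Msgn1, is shown because the results below follow how these 3 genes go together in single cells. The 250 bases come from RefSeq on GRCm38.p6, and 1 core of the TCF and LEF motif, CTTTGA or its reverse complement TCAAAG, is in capitals. The windows are chr17:8434173-8434422 on the plus strand for T, chr7:126781233-126781482 on the plus strand for Tbx6 and chr12:11208949-11209198 on the minus strand for Msgn1.
T: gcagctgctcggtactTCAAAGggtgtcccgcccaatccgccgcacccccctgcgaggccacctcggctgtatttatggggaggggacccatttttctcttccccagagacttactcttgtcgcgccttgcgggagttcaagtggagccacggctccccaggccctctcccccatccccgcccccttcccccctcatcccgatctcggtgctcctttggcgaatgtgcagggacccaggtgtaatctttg
Tbx6: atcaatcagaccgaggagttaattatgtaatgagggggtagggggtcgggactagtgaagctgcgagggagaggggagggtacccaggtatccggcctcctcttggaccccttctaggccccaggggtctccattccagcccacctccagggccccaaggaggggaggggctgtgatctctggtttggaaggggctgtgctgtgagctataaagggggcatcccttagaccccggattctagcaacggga
Msgn1: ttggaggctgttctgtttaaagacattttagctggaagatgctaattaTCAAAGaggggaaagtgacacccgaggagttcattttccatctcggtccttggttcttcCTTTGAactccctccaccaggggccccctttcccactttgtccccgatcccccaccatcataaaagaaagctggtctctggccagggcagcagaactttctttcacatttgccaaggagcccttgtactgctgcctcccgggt
The T window held this core once, 234 bases before the start, the Msgn1 window held it at 202 and 143 bases before the start, and the Tbx6 window held none. Of all 32851 windows of this length, 13.8% held it on either strand. Of the other members, Eomes had none and Mesp1 had 2. A T-box core, TCACAC or its reverse complement GTGTGA, was in none of these 5 windows and in 12.3% of all. Both motifs were chosen after the sequences had been seen, and a match is a description of letters, not of a bound site. The windows follow RefSeq starts, which differ from the gene spans given below. The Mesp1 window (79793591 to 79793840) reaches into its span, which ends at 79793788, and both Mesp1 cores, at 72 and 31 bases, lie inside it. The end of the Msgn1 window also lies within its span, but its 2 cores do not.

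In mesoderm-like cells T, Tbx6 and Msgn1 were read together in nearly every cell, while in epiblast-like cells T was common and the other members were found in a minority. To call a gene higher or lower, 1 CPM was added to each class mean and the ratio had to be 2 or more in either direction, a rule by which 9.55% of 18054 measured genes (a read in at least 3 cells) were called higher and 8.18% lower. Tbx6, Msgn1, Mixl1 and Mesp1 were higher in mesoderm-like cells by this measure, Eomes was lower, and T was 0.90 higher on the log2 scale and so below the 2-fold line. The class rule used none of the 6.

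**Figure D1:**
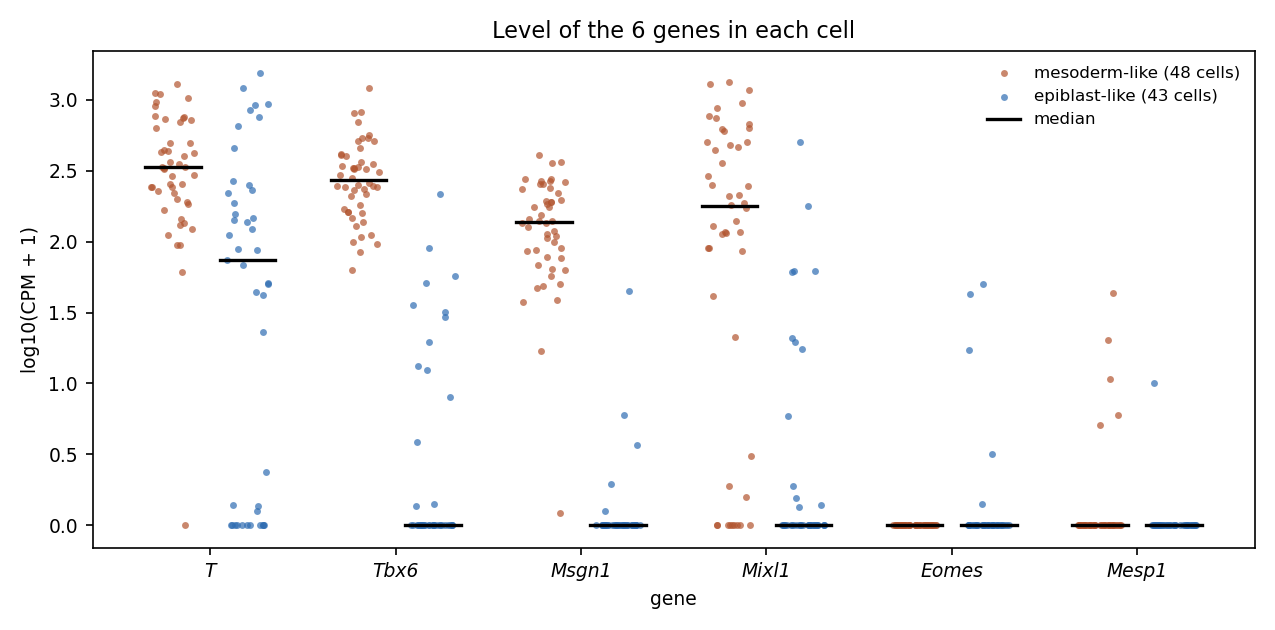
Level of each gene in each cell, as log10(CPM + 1) on the vertical axis, with mesoderm-like cells left of epiblast-like cells for each gene; 1 point is 1 cell and the black line is the median. T overlaps widely between the classes, while 32 of 48 mesoderm-like cells lie above the highest epiblast-like cell for Tbx6 and 44 of 48 do for Msgn1.

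T (ENSMUSG00000062327; chromosome 17, 8434423 to 8442496, plus strand, GRCm38) encodes brachyury, the T-box factor that marks the streak and without which posterior mesoderm fails to form. Its level in mesoderm-like cells had a minimum of 0, a median of 333 and a maximum of 1293 CPM, against a minimum of 0, a median of 73.8 and a maximum of 1536 CPM in epiblast-like cells. The ranges overlapped along their whole length, and 8 of 43 epiblast-like cells had more T than the median mesoderm-like cell. The mean was 427 ± 317 CPM in mesoderm-like cells and 228 ± 366 CPM in epiblast-like cells (SD over 48 and 43 cells). The class difference crossed the 2-fold line, with a log2 ratio of 1.11, when the epiblast-like cell highest in T (F3) was left out or when the class rule was applied to levels per exon length, and with 1.06 when cell B10 was left out. T had reads in 47 of 48 mesoderm-like cells (97.9%, exact Clopper-Pearson interval of 95% confidence 88.9 to 99.9%) and in 32 of 43 epiblast-like cells (74.4%, interval 58.8 to 86.5%). These intervals take the cells as independent draws and cover the sampling of cells only. The cells come from 1 pool with no embryo named, so differences between embryos are not covered. Several reads can also stem from 1 molecule. The 15 epiblast-like cells with fewer than 5 T reads had 0 to 3 of them, and the other 28 had at least 54, so that T was nearly absent or clearly present, with no cell between.

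Tbx6 (ENSMUSG00000030699; chromosome 7, 126781483 to 126785560, plus strand), the T-box factor without which paraxial mesoderm turns to neural tissue in mouse embryos, was read in 48 of 48 mesoderm-like cells and in 14 of 43 epiblast-like cells (32.6%, interval 19.1 to 48.5%). Mesoderm-like cells had 62.4 CPM at the lowest, 270 CPM at the median and 1201 CPM at the highest, against 0 CPM at the lowest and the median and 217 CPM at the highest in epiblast-like cells. Only 2 epiblast-like cells, D5 (217 CPM) and C10 (89.8 CPM), reached the lowest mesoderm-like value, and in the 14 epiblast-like cells with a read the median was 23.4 CPM. The mean was 325 ± 221 CPM in mesoderm-like and 13.03 ± 36.9 CPM in epiblast-like cells, a log2 ratio of 4.54, which was 5.15 without D5.

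Msgn1 (ENSMUSG00000047002; chromosome 12, 11208360 to 11208972, minus strand), a gene of 1 exon for the bHLH factor mesogenin 1 of the presomitic mesoderm, showed the steepest difference of the 6. It had reads in 48 of 48 mesoderm-like cells and in 5 of 43 epiblast-like cells (11.6%, interval 3.89 to 25.1%). At least 5 reads were found in 47 mesoderm-like and 3 epiblast-like cells. Mesoderm-like cells had 0.225 CPM at the lowest, 137 CPM at the median and 408 CPM at the highest, against 0 CPM at the lowest and the median and 44.1 CPM at the highest in epiblast-like cells. No epiblast-like cell reached the mesoderm-like median. The mean was 154 ± 96.5 CPM in mesoderm-like and 1.23 ± 6.74 CPM in epiblast-like cells, a log2 ratio of 6.12. The mesoderm-like cell with the lowest value, D4, had 1 Msgn1 read and also the lowest Tbx6 level of its class. It was the only cell with reads of Cer1, which encodes a secreted inhibitor of Nodal, BMP and Wnt signals (7596 reads, 1711 CPM), a gene looked up after the values were seen. Without D4 the log2 ratio of Msgn1 was 6.15, and without C10, the epiblast-like cell highest in Msgn1, it was 6.996.

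Mixl1 (ENSMUSG00000026497; chromosome 1, 180693043 to 180697034, minus strand), a paired-type homeobox gene of the streak, was the most uneven of the 4 common members among mesoderm-like cells. It had reads in 39 of 48 mesoderm-like cells (81.3%, interval 67.4 to 91.1%) and in 13 of 43 epiblast-like cells (30.2%, interval 17.2 to 46.1%). Mesoderm-like cells ran between 0 and 1340 CPM with a median of 176 CPM and quartiles of 15.6 and 506 CPM, against 0 to 499 CPM with a median of 0 in epiblast-like cells. Its SD in mesoderm-like cells was 1.15 times its mean, against 0.743 for T, 0.678 for Tbx6 and 0.628 for Msgn1. The mean was 317 ± 363 CPM in mesoderm-like and 21.4 ± 80.6 CPM in epiblast-like cells, a log2 ratio of 3.83. The highest epiblast-like value, 499 CPM, was that of B10, the cell with nearly as much Aldh1a2 as Nkx1-2, and F3 was next with 177 CPM. These were the only epiblast-like cells above the mesoderm-like median. The log2 ratio was 4.85 without B10, 4.77 with only the cells that had a 10-fold gap between Nkx1-2 and Aldh1a2, 4.87 with the class rule on levels per exon length, and 2.53 with classes from a score of 8 marker genes, a rule that changed the class of 1 cell.

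Eomes (ENSMUSG00000032446; chromosome 9, 118478212 to 118486132, plus strand), the T-box factor of the early streak, ran the other way. It was read in 0 of 48 mesoderm-like cells, which allows a share of up to 7.40% (upper bound of the exact interval), and in 5 of 43 epiblast-like cells. The mean of 0 CPM in mesoderm-like cells stood against 2.56 ± 9.96 CPM in epiblast-like cells, a log2 ratio of -1.83 with 1 CPM added. With 3 counts set over the whole mesoderm-like group in place of 0, the level in the 48 cells read here would be 109-fold lower. This value is no bound, since several reads can stem from 1 molecule and the choice of cells is not covered. With 10 CPM added to both means the log2 ratio was -0.33. Cells H9, D5 and C1 carried this difference, with 139, 66 and 57 reads, and H8 and A9 had 4 and 1. All 5 had T reads, as did 74.4% of all epiblast-like cells. None of the 5 had a read of Foxa2, Sox17, Noto, Lhx1, Gsc or Cer1, genes of the node, endoderm or anterior streak. Of the genes of blood and vessel precursors, H9 had 135 reads of Kdr, found in no other cell, and Etv2 had 39 reads in D5 and 23 in H8 and was read in 12 of 43 epiblast-like cells in all. Eomes shares 118 exon bases with Gm33460 on the other strand, and the sources used here do not say whether counting used strand. Mesp1 (ENSMUSG00000030544; chromosome 7, 79792241 to 79793788, minus strand), a bHLH gene of the earliest heart mesoderm, was read in 5 mesoderm-like cells (B4 with 106 reads, H2 with 38, G1 with 31, D4 with 22 and E6 with 13) and in 1 epiblast-like cell (G11 with 29). Its mean was 1.68 ± 6.81 CPM in mesoderm-like and 0.212 ± 1.39 CPM in epiblast-like cells. The log2 ratio of 1.14 fell below the 2-fold line without cell B4 (0.58) or with 10 CPM added to the means (0.19). Its near neighbour Mesp2, a gene of the forming somite boundary, had no read in mesoderm-like cells, and 3 of the 5 Mesp1 cells (B4, E6 and H2) had between 118 and 287 CPM of Lhx1, which was read in 25 of all 48 mesoderm-like cells.

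Per exon length, which allows levels to be set between genes, the order in mesoderm-like cells was Msgn1, T, Tbx6 and Mixl1, with means of 251 ± 157, 184 ± 137, 180 ± 122 and 138 ± 158 RPKM (SD over 48 cells). Neighbours in this order lay within the spread between cells. In epiblast-like cells T stood first with 98.3 ± 158 RPKM, followed by Mixl1 with 9.33 ± 35.1, Tbx6 with 7.22 ± 20.4 and Msgn1 with 2.01 ± 11 RPKM (SD over 43 cells). Msgn1 was thus first in mesoderm-like cells and behind T, Mixl1 and Tbx6 in epiblast-like cells. Mixl1 and Tbx6 also changed places, but without B10 the epiblast-like means were 4.37 ± 13.5 RPKM for Mixl1 and 6.73 ± 20.4 RPKM for Tbx6, which is their order in mesoderm-like cells.

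Detection kept its shape when all cells were brought to the same depth. After each cell was thinned at random to 500000 counts, Tbx6 had reads in 48 mesoderm-like and 13 epiblast-like cells, Msgn1 in 48 mesoderm-like and 3 epiblast-like cells, T in 47 mesoderm-like and 30 epiblast-like cells, and Mixl1 in 37 mesoderm-like and 10 epiblast-like cells. Eomes then had reads in 0 mesoderm-like and 3 epiblast-like cells, and Mesp1 in 5 mesoderm-like cells and 1 epiblast-like cell. As a background, 14 genes of other organs such as Alb of the liver and Umod of the kidney had reads in 1.19% of gene and cell pairs in mesoderm-like and 2.66% in epiblast-like cells, and 10 of the 14 had none in each class. In epiblast-like cells most of these reads came from Mbp, seen in 10 of 43 cells. The shares for T, Tbx6 and Mixl1 in epiblast-like cells lay above this background with their whole interval, both at 1 read and at 5 reads, where the background was 1.66%. Those of Msgn1 and Eomes did so at 1 read only: at 5 reads each had 3 of 43 cells with an interval of 1.46 to 19.1%, and both were read in fewer cells than Mbp. The share of Mesp1 (2.33%) did not lie above the background. This background is a mean over 14 listed genes, and setting intervals of cells from 1 pool beside it is a description, not a test. Tbx6 and Mixl1 were read in 14 and 13 epiblast-like cells, near the 10 of Mbp, and Mixl1 had at least 5 reads in 9.

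Mesoderm-like cells carried the factors as a set. Of the 48, 33 had reads of T, Tbx6, Msgn1 and Mixl1, 5 had these 4 and Mesp1, 9 had T, Tbx6 and Msgn1 without Mixl1, and 1 had Tbx6, Msgn1 and Mixl1 without T. That cell, H4, had 1306 Tbx6, 1510 Mixl1 and 39 Msgn1 reads beside 0 T reads. It had reads in 6261 genes, the fewest of all 91 cells, and the part of this in its missing T was not tested. It also had 1 read of Dll1, the Notch ligand gene that every other mesoderm-like cell carried too, and was looked at after its values were seen. No mesoderm-like cell had fewer than 3 of the 6 genes. Tbx6 and Msgn1 were read together in all 48, which the sampling of cells allows to be as low as 92.6%.

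**Figure D2:**
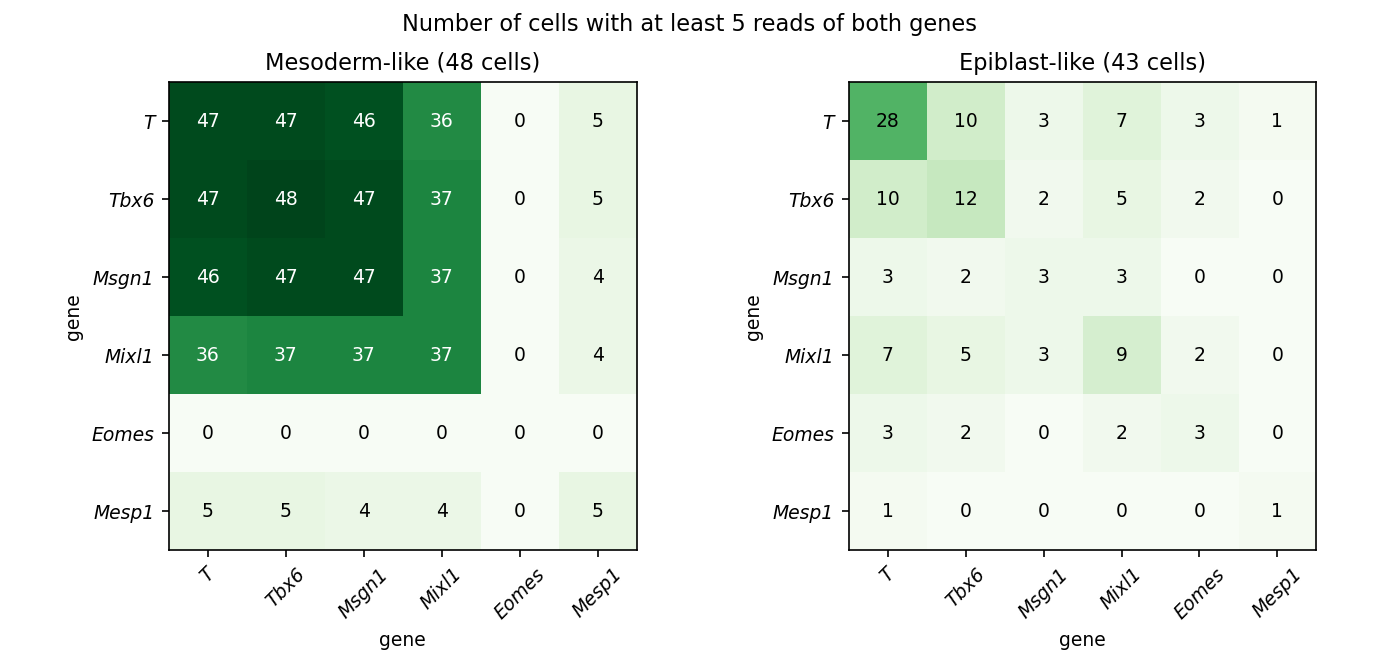
Number of cells with at least 5 reads of both the row and the column gene, with the single genes on the diagonal, in mesoderm-like cells (left) and epiblast-like cells (right). In mesoderm-like cells T, Tbx6 and Msgn1 pair in 46 or 47 of 48 cells, while in epiblast-like cells T pairs with Tbx6 in 10 and with Msgn1 in 3 of 43.

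In epiblast-like cells T was the common gene, read in 74.4% of all 43, and the others were mostly read in cells that had it. T was read in 92.9% of the Tbx6 cells and in 84.6% of the Mixl1 cells, the latter near its share in the class. At 5 reads T was found in 65.1% of the class, 83.3% of the Tbx6 cells and 77.8% of the Mixl1 cells. No member was read in 9 of 43 cells, T alone in 8, T with Tbx6 alone in 8 and T with Mixl1 alone in 5, and no cell had more than 4 of the 6. T and Tbx6 were read together in 13 cells (30.2%, interval 17.2 to 46.1%), T without Tbx6 in 19 and Tbx6 without T in 1. At 5 reads Tbx6 was without T in 2 of 12 cells, since G12 had 45 Tbx6 reads and 1 T read. Msgn1 (5 cells) and Eomes (5 cells) were never read without T, which says little at 5 cells each beside the share of T. Mixl1 was read without T in 2 cells: E9 had 148 Mixl1 and 76 Tbx6 reads and F7 had 157 Mixl1 reads, both with 0 reads of T. Msgn1 and Eomes shared no cell, with an upper bound of 8.22%, which at 5 cells each leaves much room. With at least 5 reads asked for, the 3 Msgn1 cells (C10 with 133 reads, B10 with 14 and F3 with 6) all had Mixl1 as well, and 2 of them had Tbx6. F3, the cell with the most T, had 398 Mixl1 and 0 Tbx6 reads, and also 1057 Dll1 reads. The same combination of Msgn1 with no Tbx6 read was found in E5, with 2 Msgn1 reads.

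**Figure D3:**
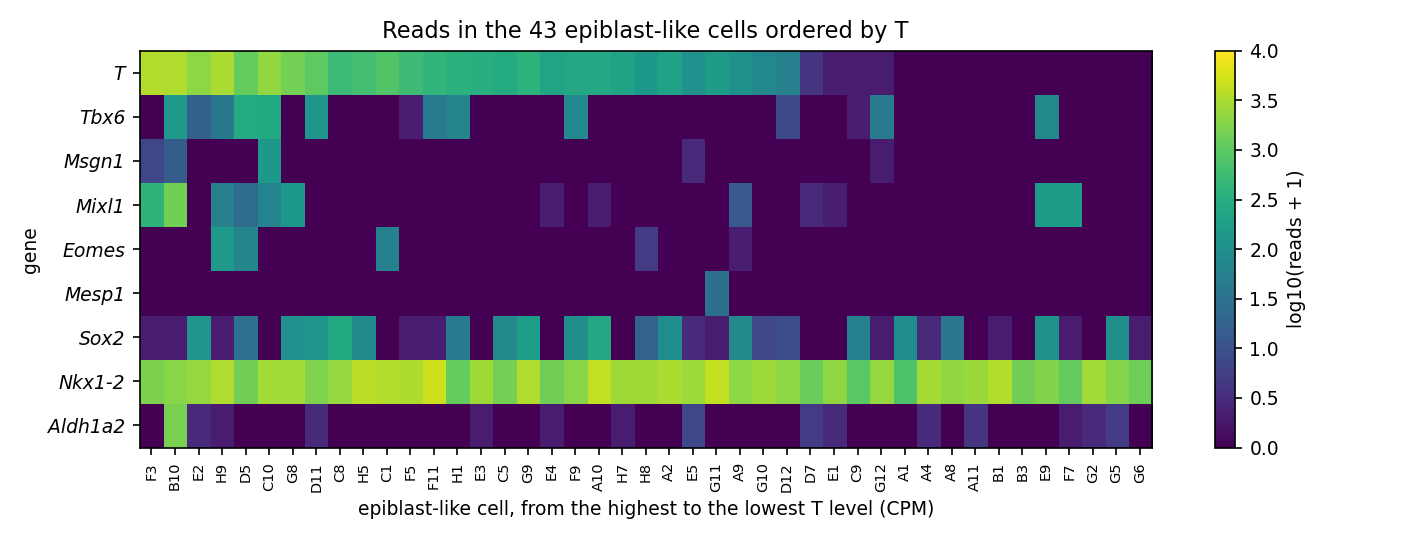
Reads of the 6 genes and of Sox2, Nkx1-2 and Aldh1a2 in the 43 epiblast-like cells as log10(reads + 1), with cells ordered along the horizontal axis from the most to the least T by CPM. Tbx6, Mixl1, Eomes and Msgn1 are found more often at the left, where the 8 cells with the most T each have at least 5 reads of another member. Of the 5 cells with Eomes, 2 are among these 8. At the right, with 0 T reads, E9 has 148 Mixl1 and 76 Tbx6 reads and F7 has 157 Mixl1 reads. Nkx1-2 is high throughout and Aldh1a2 is high only in B10.

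Along the T level of epiblast-like cells the other members apart from Mesp1 were found more often at the top. The cells were laid in 3 steps, chosen after the values were seen. Of the 15 cells with fewer than 5 T reads, 3 had at least 5 reads of another member. Of the 20 cells with at least 5 T reads and a level up to the mesoderm-like median, 7 had. Of the 8 cells with T above that median (459 to 1536 CPM), 8 had. From the lowest to the highest step of T, Tbx6 averaged 2.86 ± 8.33, 4.24 ± 10.2 and 54.1 ± 73.3 CPM and Mixl1 averaged 8.16 ± 21.3, 0.288 ± 1.08 and 99.0 ± 172 CPM. The lower steps of T thus lay close together for Tbx6 and ran the other way for Mixl1, where E9 and F7 carry the lowest step. Msgn1 with at least 5 reads was found in 0 of 15, 0 of 20 and 3 of 8 cells. Nkx1-2 was high in all 3 steps, at 733 ± 259, 1161 ± 371 and 922 ± 197 CPM, and so was Cdh1, the epithelial cadherin gene, at 255 ± 173, 304 ± 181 and 241 ± 177 CPM. Sox2, which Tbx6 holds back in the embryo, averaged 13.1 ± 22.1, 24.6 ± 35.5 and 22.6 ± 25.8 CPM.

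Split at the median of T, the 21 epiblast-like cells with more T had more of 4 other members than the 22 with less, where 8.46% of 15623 measured genes were at least 2-fold higher and 7.97% lower. Tbx6 averaged 24.5 ± 50.4 CPM in cells with more T and 2.08 ± 6.92 CPM in cells with less, a log2 ratio of 3.05, and was read in 10 of the 21 cells with more T and 4 of the 22 with less. Without single cells this ratio ran between 2.37 (without D5) and 3.91 (without E9). Mixl1 averaged 37.8 ± 113 CPM in cells with more T and 5.78 ± 17.8 CPM in cells with less, a log2 ratio of 2.51 that was 1.21 without cell B10 and 3.22 without F7. The SDs exceed the means, since most cells were at 0. Msgn1 averaged 2.46 ± 9.61 CPM in cells with more T and 0.0555 ± 0.210 CPM in cells with less, but its log2 ratio of 1.71 rested on cell C10 and was 0.39 without it. Eomes averaged 5.11 ± 13.9 CPM in cells with more T and 0.118 ± 0.473 CPM in cells with less, with reads in 3 cells with more T and 2 with less. Its log2 ratio of 2.45 was 1.80 without D5. The median cell had reads in 8231 genes with more T and in 8168.5 genes with less, and the median mitochondrial share was 3.12% with more T and 4.18% with less. Their part in the differences was not tested.

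Split by Tbx6 instead, the 14 epiblast-like cells with a Tbx6 read had more T than the 29 without, where 6.69% of the 15623 genes were at least 2-fold higher and 10.6% lower. T averaged 415 ± 428 CPM in cells with Tbx6 and 137 ± 301 CPM in cells without, a log2 ratio of 1.59, and was read in 13 of the 14 cells with Tbx6 and 19 of the 29 without. Without F3 this ratio was 2.23. Eomes averaged 6.50 ± 16.6 CPM in cells with Tbx6 and 0.650 ± 3.03 CPM in cells without, a log2 ratio of 2.19 that was 1.35 without D5, with reads in 2 of the 14 cells and 3 of the 29. Msgn1 and Mixl1 did not hold up. Msgn1 had a log2 ratio of 2.01, which was 0.32 without cell C10. Mixl1, at 43.9 ± 132 CPM in cells with Tbx6 against 10.5 ± 35.6 CPM in cells without, had a log2 ratio of 1.96 that turned to -0.22 without cell B10. Sox2 averaged 18.8 ± 21.6 CPM in cells with Tbx6 and 20.9 ± 33.05 CPM in cells without. The median mitochondrial share was 3.31% in cells with Tbx6 and 4.15% in cells without, and its part was not tested.

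**Figure D4:**
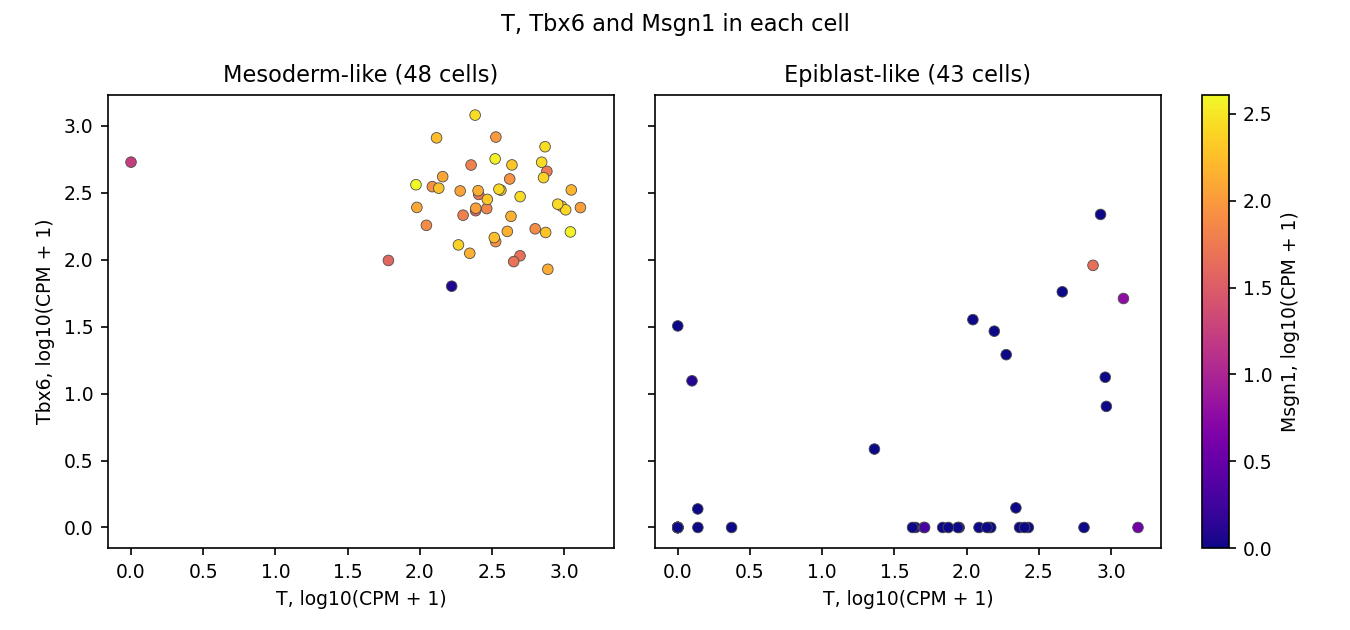
T on the horizontal and Tbx6 on the vertical axis, both as log10(CPM + 1), in mesoderm-like cells (left) and epiblast-like cells (right), with the Msgn1 level as colour; 1 point is 1 cell. Mesoderm-like cells form a cloud in which Tbx6 does not follow T, with H4 at the far left, while epiblast-like cells with the most Tbx6 and any clear Msgn1 have high T.

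Within mesoderm-like cells the 4 common members were at most weakly related in level. Spearman's rho over 48 cells was -0.08 for T and Tbx6, 0.33 for T and Msgn1, 0.32 for Tbx6 and Msgn1, and 0.21 for T and Mixl1. In epiblast-like cells rho was 0.42 for T and Tbx6, 0.28 for T and Msgn1 and 0.30 for T and Mixl1 over 43 cells, with many cells tied at 0. All points share 1 pool and plate and the scaling to the total count, and these values are descriptions. Over all 91 cells rho was 0.84 for Tbx6 and Msgn1, which is the difference between the classes.

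When the mesoderm-like cells were split at the median of T, the 24 cells with more T had 308 ± 190 CPM of Tbx6 against 343 ± 251 CPM in the 24 with less. Msgn1 averaged 173 ± 87.7 CPM in cells with more T and 134 ± 103 CPM in cells with less, and Mixl1 398 ± 428 CPM in cells with more T and 235 ± 270 CPM in cells with less. None of these 3 differences reached 2-fold, in a split where 8.22% of 15729 measured genes were at least 2-fold higher and 8.65% lower. Split at the median of Tbx6, T averaged 368 ± 267 CPM in the 24 cells with more Tbx6 and 485 ± 356 CPM in the 24 with less. Msgn1 averaged 178 ± 101 CPM in cells with more Tbx6 and 129 ± 86.7 CPM in cells with less, and Mixl1 320 ± 387 CPM in cells with more Tbx6 and 313 ± 346 CPM in cells with less. Again none of the 3 reached 2-fold, where 10.3% of genes were higher and 7.72% lower. Mesp1 was past 2-fold in both splits, with log2 ratios of -1.27 along T and -1.84 along Tbx6, from its 5 cells; without B4 they were -0.39 along T and -1.08 along Tbx6. Aldh1a2, a gene of the class rule, ran against T (1306 ± 543 CPM in cells with more T, 1771 ± 663 CPM in cells with less; rho -0.42) and with Tbx6 (1789 ± 694 CPM in cells with more Tbx6, 1288 ± 485 CPM in cells with less; rho 0.39). The median mitochondrial share was 5.25% in cells with more T and 4.59% in cells with less, and 3.97% in cells with more Tbx6 and 5.52% in cells with less; its part was not tested.

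Genes that lie downstream of Tbx6 and Msgn1 in the presomitic mesoderm were higher in mesoderm-like cells almost without exception and differed in part along T within them. The list has 21 genes, of which 19 were measured. Of the 19, 18 had a mean at least 2-fold higher in the mesoderm-like class and 1 was lower, against 9.55% and 8.18% of all measured genes. The median log2 ratio was 4.25, against -0.01 for all measured genes. Aldh1a2 of this list is a gene of the class rule. Pdgfra, a growth factor receptor gene of paraxial mesoderm, averaged 271 ± 164 CPM in mesoderm-like and 0.427 ± 1.40 CPM in epiblast-like cells. Foxc1, a forkhead factor gene of presomitic and somitic mesoderm, averaged 63.7 ± 69.9 CPM in mesoderm-like and 0.0105 ± 0.0691 CPM in epiblast-like cells. The lower gene was Hes1, a Notch target, with 2.81 ± 10.04 CPM in mesoderm-like and 45.5 ± 52.4 CPM in epiblast-like cells. Dll1, a ligand of Notch and a direct target of Tbx6 in mouse embryos, averaged 385 ± 237 CPM in mesoderm-like and 19.3 ± 79.2 CPM in epiblast-like cells.

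**Figure D5:**
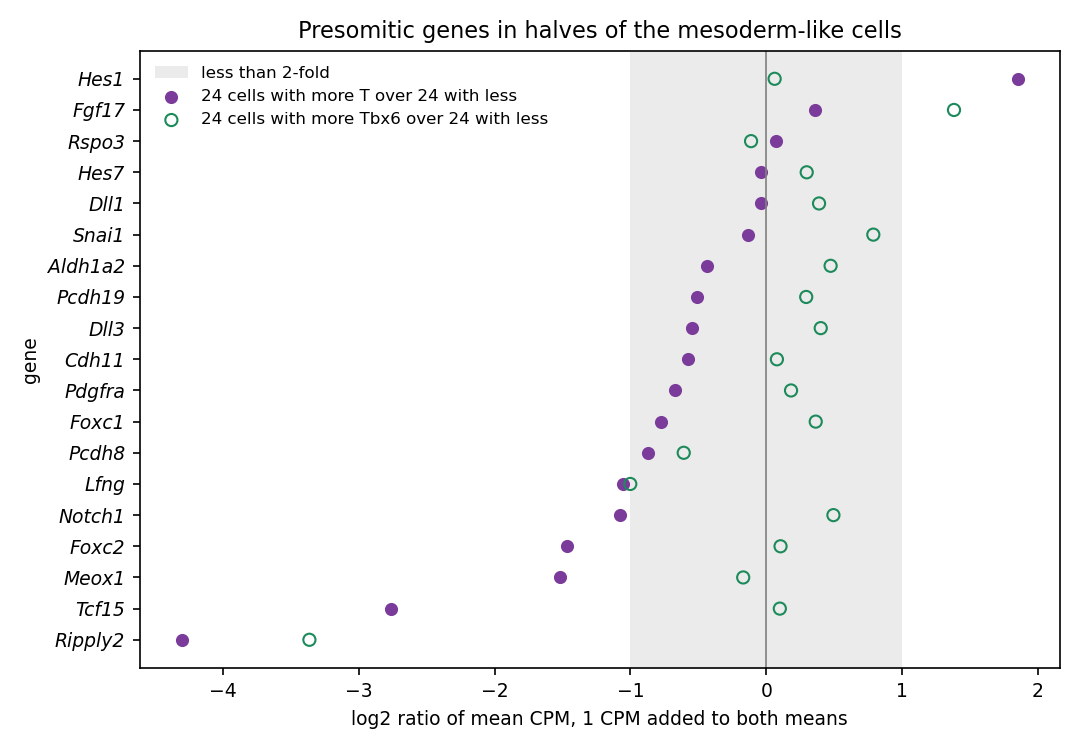
Log2 ratio of mean CPM for the 19 measured presomitic genes between the 24 mesoderm-like cells with more and the 24 with less T (filled) or Tbx6 (open), with the span under 2-fold in grey. Along T, Ripply2, Tcf15, Meox1, Foxc2, Notch1 and Lfng lie past 2-fold on the lower side and Hes1 on the higher side; along Tbx6, 16 of 19 lie within 2-fold.

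Along T in mesoderm-like cells, 6 of the 19 were at least 2-fold lower in the cells with more T and 1, Hes1, was higher. Over all genes 8.65% were lower and 8.22% higher. Hes1 had a log2 ratio of 1.85, and 1.21 without cell H11. The median log2 ratio of the list was -0.58 against -0.02 for all genes. The 6, named after their values were seen, were Ripply2, Tcf15, Meox1, Foxc2, Notch1 and Lfng. Notch1 (log2 ratio -1.08) and Lfng (-1.06) were only just past the 2-fold line. Meox1, a homeobox gene of somites and the anterior presomitic mesoderm, averaged 57.01 ± 61.7 CPM in cells with more T and 165 ± 142 CPM in cells with less. Tcf15, the bHLH gene of epithelial somites, averaged 3.68 ± 13 CPM in cells with more T, where 3 of 24 had reads, and 30.8 ± 49.4 CPM in cells with less, where 11 of 24 had. Its log2 ratio was -2.77, and -3.90 without cell E11. Foxc2, a close relative of Foxc1, averaged 26.2 ± 47.9 CPM in cells with more T and 74.5 ± 85.1 CPM in cells with less. The spreads between cells overlap for each, and Ripply2 was read in only 3 mesoderm-like cells, with 9.39 ± 62.1 CPM over the class. Along Tbx6, 1 gene of the list was higher (Fgf17) and 2 were lower (Lfng and Ripply2), with a median log2 ratio of 0.18 against 0.06. Over all genes 10.3% were higher and 7.72% lower in that split, so that these counts are close to the background. In epiblast-like cells the list was in part higher with more T: 10 of 16 measured genes were at least 2-fold higher in the 21 cells with more T and 0 lower, where 8.46% of all genes were higher, with a median log2 ratio of 1.20 against 0.02. Single cells carried part of this count. Without B10, 9 of 15 were higher, and the log2 ratio of Aldh1a2 was -0.32 in place of 4.27. Dll1 had a log2 ratio of 3.18 that was 1.93 without F3, and Meox1 one of 1.26 that was -0.59 without E2. Tcf15, read in 4 epiblast-like cells, had one of 1.13 that was 0.40 without G9. Hes7, the oscillating repressor gene of the segmentation clock, averaged 67.1 ± 68.3 CPM in these cells and 2.22 ± 6.19 CPM in the 22 with less T, and was read in 14 of the 21 cells with more T and 3 of the 22 with less; it was named after its values were seen. Pdgfra stayed near 0, with 0.206 ± 0.571 CPM in epiblast-like cells with more T and 0.637 ± 1.88 CPM in those with less. Split by a Tbx6 read, 7 of 16 genes of the list were higher in epiblast-like cells with Tbx6 and 1, Notch1, was lower (log2 ratio -2.50). Over all genes 6.69% were higher and 10.6% lower, and the list median was 0.83 against -0.01. Without B10, 7 of 15 were higher and 2 lower. Dll1 did not follow Tbx6 there, with a log2 ratio of -0.30 that was -4.22 without B10 and 1.65 without F3.

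Of the signals that act on the streak, 11 of 13 listed genes were measured between the classes. Of the 11, 5 were at least 2-fold higher and 2 lower in mesoderm-like cells, against 9.55% and 8.18% of all measured genes. Rspo3 and Fgf17 are in this list and also in the presomitic list above. Rspo3, which encodes a secreted enhancer of Wnt signals, averaged 336 ± 199 CPM in mesoderm-like and 13.6 ± 39.04 CPM in epiblast-like cells, Fgf3 131 ± 126 CPM in mesoderm-like and 9.01 ± 22.2 CPM in epiblast-like cells, and Fgf4 68.3 ± 86.7 CPM in mesoderm-like and 7.56 ± 30.7 CPM in epiblast-like cells. Wnt5b, a ligand of the noncanonical Wnt branch, was lower, at 21.02 ± 35.1 CPM in mesoderm-like and 50.2 ± 73.4 CPM in epiblast-like cells. In epiblast-like cells 7 of 9 measured signal genes were at least 2-fold higher in the cells with more T and 0 were lower, and 6 of 9 were higher without B10, where 8.46% of all genes were higher with B10 and 8.43% without. Wnt3a, a Wnt ligand gene that keeps T on in the streak, averaged 55.1 ± 75.3 CPM in cells with more T and 3.76 ± 13.1 CPM in cells with less, and was read in 14 of the 21 and 4 of the 22. Its log2 ratio was 3.56, and 4.74 without G11, a cell with less T. Fgf8, an FGF ligand gene of the streak, averaged 21.6 ± 24.02 CPM in cells with more T and 3.67 ± 8.90 CPM in cells with less, and was read in 16 of the 21 and 5 of the 22. Wnt3a and Fgf8 were named after their values were seen. Between the classes both differed less than 2-fold, Wnt3a with 31.6 ± 44.9 CPM in mesoderm-like and 28.8 ± 58.8 CPM in epiblast-like cells and Fgf8 with 16.5 ± 30.2 CPM in mesoderm-like and 12.4 ± 19.9 CPM in epiblast-like cells. In mesoderm-like cells 1 of 11 signal genes, Fgf8, was past 2-fold along T, with 24.9 ± 38.2 CPM in cells with more T and 8.12 ± 15.9 CPM in cells with less. Over all genes 8.22% were higher and 8.65% lower in this split, so that this count is close to the background.

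Among the DNA-binding factors of the Wnt pathway, 3 of 4 were higher in mesoderm-like cells. Of 13 measured effectors and targets, 4 were at least 2-fold higher and 3 lower in mesoderm-like cells, against 9.55% and 8.18% of all measured genes. Lef1 averaged 374 ± 211 CPM in mesoderm-like and 61.5 ± 51.9 CPM in epiblast-like cells, Tcf7l1 77.97 ± 65.6 CPM in mesoderm-like and 11.2 ± 15.6 CPM in epiblast-like cells, and Tcf7l2 131 ± 110 CPM in mesoderm-like and 49.6 ± 40.4 CPM in epiblast-like cells. Tcf7, the remaining gene of this family, differed less than 2-fold with 93.7 ± 66.1 CPM in mesoderm-like and 83.5 ± 66.6 CPM in epiblast-like cells. Cdx2, a homeobox gene of posterior identity, was lower in mesoderm-like cells with 18.5 ± 28.1 CPM against 59.5 ± 57.4 CPM in epiblast-like cells, and so was Sp8, a zinc finger gene, with 351 ± 270 CPM in mesoderm-like and 784 ± 366 CPM in epiblast-like cells. Ctnnb1, which encodes beta-catenin, had 426 ± 196 CPM in mesoderm-like and 420 ± 168 CPM in epiblast-like cells. Along T in epiblast-like cells, 2 of the 13 were higher and 2 lower, among them Tcf7l1 with a log2 ratio of -1.22; over all genes 8.46% were higher and 7.97% lower, so that these counts are close to the background.

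Of 11 genes set against mesoderm fate, 1 was at least 2-fold higher and 5 were lower in mesoderm-like cells. The shares over all measured genes were 9.55% higher and 8.18% lower. 1 of the 5 is Nkx1-2, whose level sets the class, so that its place was fixed by the rule. Sox2, the neural and pluripotency factor gene, averaged 1.15 ± 5.33 CPM in mesoderm-like and 20.2 ± 29.5 CPM in epiblast-like cells, and Sox3 had no read in mesoderm-like cells and 10.99 ± 13.4 CPM in epiblast-like cells. Utf1, a chromatin factor gene of pluripotent cells from the epiblast markers, had reads in 3 of 48 mesoderm-like and 27 of 43 epiblast-like cells. Of 17 genes of mouse T-box factors including Mga, 4 were measured, T, Tbx6, Eomes and Mga, and 11 had no read in any cell. Mga, a T-box protein that pairs with Max, differed less than 2-fold, with 142 ± 160 CPM in mesoderm-like and 122 ± 122 CPM in epiblast-like cells. Of 17 genes set downstream of Eomes, Mixl1 and Mesp1 in the streak, endoderm and heart, 9 were measured. Of the 9, 5 were higher and 1 lower in mesoderm-like cells, against 9.55% and 8.18% of all measured genes. The rule for naming genes gave Lhx1 of these, a LIM homeobox gene of the streak, with 44.9 ± 69.6 CPM in mesoderm-like and 0.179 ± 0.688 CPM in epiblast-like cells. Foxa2, a forkhead gene of the node and endoderm, was read in 1 mesoderm-like cell only.

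Genes whose level across cells was most like that of a member were sought among the 7375 genes with reads in at least 50% of mesoderm-like cells and the 7699 in epiblast-like cells. For T in mesoderm-like cells these were Grsf1 (rho 0.66), Snx1 (0.52), Ptp4a2 (0.50), Dnajc19 (0.49) and Zc3h15 (0.48), and Msgn1 stood at place 112. For Tbx6 they were Dpp3 (0.67), Hoxb1 (0.63), Maged1 (0.61), Gm46379 (0.59) and Tmbim6 (0.57), with Msgn1 at place 413 and T at place 5380. Hoxb1, a homeobox gene of the posterior embryo, averaged 648 ± 376 CPM in the 24 mesoderm-like cells with more Tbx6 and 326 ± 191 CPM in the 24 with less. For Msgn1 they were Gm30970 (0.62), Cog1 (0.56), Gm5380 (0.55), Kars (0.54) and Ypel3 (0.53). For T in epiblast-like cells they were Hoxaas3 (0.65), Fst (0.62), Gatad2b (0.59), Ccnjl (0.59) and Sema6a (0.55). Fst, which encodes the activin inhibitor follistatin, averaged 594 ± 277 CPM in epiblast-like cells with more T and 311 ± 206 CPM in those with less. These are the extremes of a long ranking. In mesoderm-like cells T, Tbx6, Msgn1 and Mixl1 entered the ranking, and none was among the 5 genes most like T, Tbx6 or Msgn1; in epiblast-like cells no member but T had reads in enough cells to be ranked.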

How the data were processed

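Single cells of the caudal lateral epiblast were sequenced by Smart-seq2, and the values deposited by the authors are raw read counts for each gene in 91 cells. Per the methods and processing notes, the authors aligned reads to GRCm38 (mm10) with HISAT2 and counted them with featureCounts; the sources used here do not give the versions, the annotation or the strand setting. The counts were scaled to CPM with pandas 2.3.3, numpy 2.4.6 and scipy 1.17.1 under Python 3.11.15. RPKM used GENCODE exon lengths, and symbols were matched for 53274 of 53379 identifiers. A gene was measured with a read in at least 3 cells of those compared. No cell was left out and no doublet caller was run. The scripts were tested on simulated data.

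The members, lists and steps were chosen with earlier results of these data known. Named besides the members were up to 3 genes of each list and direction with the largest change, if past 2-fold and detected in at least 50% of cells of the higher class, T-box genes in at least 10% of cells, Sox2, Noto and Foxa2, and the 5 genes most like T, Tbx6 or Msgn1; other names were chosen after values were seen. Alternatives changed the scaling, added constant, class rule, detection limit, depth and gene filter. No test was made, since the cells are 1 pooled sample. 1 gene of the list of other organs is not reported here.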

Additional observations from a re-analysis of the deposited data

How the results depend on the processing

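Of 159 values and counts recomputed for the main comparisons, 144 kept their direction and their side of the 2-fold line or stayed close. Thinning the class ratios, and leaving out B10, D4 or single cells of the splits along T and Tbx6, were chosen after seeing the data. The log2 ratio of T between the classes passed the line, with 1.11 both without the epiblast-like cell highest in T and with the class rule on exon length and 1.06 without B10. With 10 CPM added, Eomes had -0.33 and Mesp1 0.19, and Mesp1 had 0.58 without its highest mesoderm-like cell. In epiblast-like cells Msgn1 without its highest cell had 0.39 along T and 0.32 along Tbx6, and Mixl1 along Tbx6 reversed to -0.22 without B10, which is also its highest cell. T and Msgn1 were found together in 2.33% of epiblast-like cells at a limit of 10 CPM. Genes called higher in mesoderm-like cells numbered 1724, and 1129 with reads asked for in 10 cells and 445 with 10 CPM added; those called lower numbered 1476, and 906 and 316. The cause was not tested, apart from the smaller number of genes in the stricter filter. Size factors moved the median of all genes by 0.014 on the log2 scale. No paired analysis was possible because the cells are 1 pooled sample in 1 labelled group and the classes share no replicate number. Depth limits the low counts, as 1 to 4 reads in a cell may be lost on thinning. For a member with no read in 48 cells, the sampling of cells alone allows a share of cells with reads of up to 7.40%.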

Other observations

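In mesoderm-like cells Tbx6 ran against 2 abundant nucleolar genes, both looked up because they stood at the far end of the list of likeness. Npm1, which encodes nucleophosmin, averaged 3881 ± 892 CPM in the 24 cells with more Tbx6 and 5518 ± 951 CPM in the 24 with less (rho -0.72 over 48 cells, the lowest of 7375 genes). Ncl, which encodes nucleolin, averaged 1823 ± 409 CPM in cells with more Tbx6 and 2632 ± 618 CPM in cells with less (rho -0.70). Along T, Npm1 had 5024 ± 1274 CPM in mesoderm-like cells with more T and 4375 ± 1121 CPM in cells with less, and Ncl had 2497 ± 721 CPM in cells with more T and 1958 ± 469 CPM in cells with less. The median mitochondrial share was 3.97% in cells with more Tbx6 and 5.52% in cells with less.

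In epiblast-like cells the gene most opposite to T was Id2, which encodes an inhibitor of bHLH factors (rho -0.61 over 43 cells, 66.7 ± 109 CPM). Cdx4, a homeobox gene of the posterior body named after its values were seen, averaged 2.23 ± 10.7 CPM in mesoderm-like and 71.9 ± 112 CPM in epiblast-like cells, and its log2 ratio along T in epiblast-like cells was 2.31.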
